A study of Mus musculus with 6 samples.

Results

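Cell division needs the products of a large group of genes that are switched on together late in the cell cycle, and 40 of these mitosis and cytokinesis genes were followed here in mouse chondrocytes, the cells of cartilage, after knockdown of Pkm2. The 40 were chosen by name, from the known roles of their products in mitosis, at a time when earlier results of these data were known. They are 40 of the 55416 genes of the deposited table, and all 40 were among the 15269 genes with enough counts to be tested. Primary chondrocytes in unpassaged culture received either a scrambled siRNA as control (siNC) or an siRNA that targets Pkm2 (siPkm2). Each group has 3 libraries, and the sources used here name no other treatment of these cultures. Pkm2 is the spliced form of the Pkm gene that makes the M2 type of pyruvate kinase, the last enzyme of glycolysis. The sample labels give neonatal knee joints as the source of the cells, whereas the supplementary methods give mice of 8 to 10 weeks, and neither states the strain. The titles name 3 libraries as siPKM2, although the genotype label of replicate 2 reads PKM3 knockdown and that of replicate 3 reads PKM4 knockdown, and all 3 were taken as siPkm2. Cultures were not sorted, so a lower level of a division gene in bulk RNA can come from fewer dividing cells or from less RNA in each dividing cell, and these cannot be told apart.

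On entry into mitosis, CDK1 bound to a B-type cyclin phosphorylates many proteins, the chromosomes condense, and a spindle of microtubules forms between the centrosomes. Kinetochores tie each chromosome to the spindle, and the spindle checkpoint holds back the anaphase-promoting complex (APC/C) until all are attached. APC/C with its activator CDC20 then marks cyclin B and securin for destruction, the sister chromatids part, and a contractile ring divides the cell. The genes of this programme share promoter elements, above all the cell cycle genes homology region (CHR), which is bound by the DREAM complex in resting cells and by MuvB with B-MYB and FOXM1 in dividing cells, and the CCAAT box, which is bound by NF-Y. Chondrocytes divide in the growth plate, divide little in adult articular cartilage, and re-enter the cycle when placed in culture with serum.

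The promoters of 7 members are shown as examples. They carry a CHR close to the start of transcription, in all but Ccnf with a CCAAT box in the same window. Of the 33 members with a listed promoter, 26 carry a CHR from 100 bases before to 50 bases after the start. The Ccnf promoter has CCAAT boxes that begin 147 and 107 bases before the start, ahead of the printed window. In the fit with the replicate number as a block, Kif11 and Hmmr had the largest falls, Cdc20, Ube2c and Top2a had smaller ones, and Cdk1 and Ccnf did not pass the test. Each run has 120 bases of the RefSeq promoter (GRCm38.p6), written 5′ to 3′ on the gene's own strand and ending at most 30 bases after the annotated start, and capitals mark the CHR (TTTGAA or TTCGAA, either strand) and the CCAAT box (CCAAT, either strand). In the order printed they lie at chr19:37376273-37376392 on the plus strand, chr11:40733408-40733527 on the minus strand, chr4:118437332-118437451 on the minus strand, chr2:164769810-164769929 on the plus strand, chr11:99024183-99024302 on the minus strand, chr10:69352898-69353017 on the minus strand and chr17:24251394-24251513 on the minus strand.
Kif11: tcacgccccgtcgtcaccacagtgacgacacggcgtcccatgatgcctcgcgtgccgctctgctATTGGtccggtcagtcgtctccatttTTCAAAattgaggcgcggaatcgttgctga
Hmmr: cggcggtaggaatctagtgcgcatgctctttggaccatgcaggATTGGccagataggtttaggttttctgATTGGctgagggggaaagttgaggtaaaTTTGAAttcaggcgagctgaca
Cdc20: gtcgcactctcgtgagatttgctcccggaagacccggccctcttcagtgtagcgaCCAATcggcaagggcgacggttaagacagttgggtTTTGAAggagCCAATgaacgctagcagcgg
Ube2c: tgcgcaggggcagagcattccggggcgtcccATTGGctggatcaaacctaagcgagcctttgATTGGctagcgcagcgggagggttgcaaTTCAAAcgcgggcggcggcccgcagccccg
Top2a: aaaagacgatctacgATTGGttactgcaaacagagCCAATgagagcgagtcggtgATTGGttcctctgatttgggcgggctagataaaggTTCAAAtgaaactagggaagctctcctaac
Cdk1: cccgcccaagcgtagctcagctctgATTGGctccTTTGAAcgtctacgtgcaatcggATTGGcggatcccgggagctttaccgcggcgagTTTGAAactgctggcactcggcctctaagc
Ccnf: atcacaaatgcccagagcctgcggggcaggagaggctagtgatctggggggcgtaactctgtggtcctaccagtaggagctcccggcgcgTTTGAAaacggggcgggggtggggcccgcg

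The Pkm knockdown was checked first. Pkm was at 1654, 2209 and 1293 TPM in siNC and at 245, 428 and 231 TPM in siPkm2 (replicates 1, 2 and 3, the order used for single libraries throughout). TPM is a level scaled by transcript length and library total. Its log2 fold change was -2.51 ± 0.33 (SE, edgeR adjusted p = 0.0738) without the block and -2.53 ± 0.13 (SE, edgeR adjusted p = 0.00932) with it, and the counts do not separate the PKM1 and PKM2 transcripts. The block is a term for the replicate number, and adjusted p-values come from the quasi-likelihood test of edgeR, adjusted by the Benjamini-Hochberg method across 15269 genes. Libraries held between 22316996 and 25691029 estimated counts. Chondrocyte markers were present in all libraries, with 8 genes summing to 17431, 4031 and 18817 TPM in siNC and to 15198, 5428 and 15609 TPM in siPkm2, while 4 endothelial markers summed to at most 0.79 TPM in any library. Replicate 2 stood apart in both groups, with low chondrocyte markers and with 6 inflammatory genes summing to 33337 TPM in siNC and 31443 TPM in siPkm2, against at most 327 TPM in the other 4 libraries. Interferon response genes (6 genes) summed to 22.4, 1447 and 45.7 TPM in siNC and to 1072, 2550 and 718 TPM in siPkm2 and were higher in siPkm2 within each replicate number. Macrophage markers (6 genes) summed to 10.3, 99.1 and 9.18 TPM in siNC and to 20.65, 58.7 and 12.1 TPM in siPkm2. They were highest in replicate 2 of both groups. Osteoblast markers (4 genes) summed to 320, 31.1 and 207 TPM in siNC and to 125, 32.2 and 58.5 TPM in siPkm2. Fibroblast markers (6 genes) summed to 2415, 2653 and 4778 TPM in siNC and to 1622, 3019 and 3361 TPM in siPkm2. Both sums were lower in siPkm2 for replicates 1 and 3. Of the 6 fibroblast genes, 4 had a negative and 2 a positive log2 fold change without the block. In edgeR's blocked fit 1 of the 6 passed an adjusted p of 0.05, as a rise, against 12.3% of all genes higher at that threshold. Muscle markers (4 genes) lay between 1.19 and 5.61 TPM in sum. The part of any of these in the levels of the mitosis genes was not tested.

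All 40 mitosis genes had a negative log2 fold change in siPkm2, from -1.27 for Kif11, the motor that pushes the spindle poles apart, to -0.10 for Ccnf, which encodes cyclin F, and the median was -0.70. The median over all genes tested was -0.02. None of the 40 was called at the study's threshold of a fold change over 2 with an adjusted p under 0.05, and no gene of the 15269 was (0%) in edgeR's fit without the block, where the members' adjusted p-values ran from 0.136 to 0.841. At an unadjusted p under 0.05 in that test, 20 of the 40 (50%) were lower in siPkm2, against 9.19% of all genes. That count was 8 without siNC replicate 1 (6.32% of all genes), 10 without siPkm2 replicate 2 (9.06%) and 7 without siPkm2 replicate 3 (5.5%). It was 19 without siNC replicate 2 (1721 of 15589 genes lower) and 23 without siNC replicate 3 (922 of 15744). Without siPkm2 replicate 1 it was 20 (911 of 15924). DESeq2's Wald test without the block gave 4 members lower at an adjusted p under 0.05, which were Kif11, Hmmr, Ndc80 and Dlgap5, against 2.88% of genes. Every siPkm2 library lay below every siNC library in 14 of the 40 (35%), against 12.3% of all genes.

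Levels of the 40 genes also differed between the cultures of a group, along the replicate numbers. In siNC, replicate 1 had the highest CPM (counts scaled to library size with TMM factors) of all 6 libraries in 38 members, and its median was 1.79-fold that of replicate 3. Replicate 3 of siPkm2 was the lowest library for 30 members and replicate 2 for 9. Replicate 1 of siPkm2 was above replicate 3 of siNC in 21 of the 40, with a median log2 difference of 0.02, so the group ranges overlapped for most members. Within a replicate number the direction was nearly uniform among the members: siPkm2 was below siNC in 40, 40 and 39 in pairs 1, 2 and 3. It was below in all 3 pairs for 39. Ccnf in pair 3 was the exception, at a log2 difference of 0.10. The same counts by pair were not made over all genes. Without the block, 7928 of the 15269 genes tested had a negative log2 fold change. The pair medians were -0.87, -0.58 and -0.58 on the log2 scale, and the largest of a member's 3 falls was in pair 1 for 32 members, in pair 2 for 7 and in pair 3 for 1. Across the 40 genes, which are not independent of each other, the log2 differences correlated between pairs at r = 0.66 (pairs 1 and 2), 0.85 (pairs 1 and 3) and 0.56 (pairs 2 and 3).

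**Figure D1:**
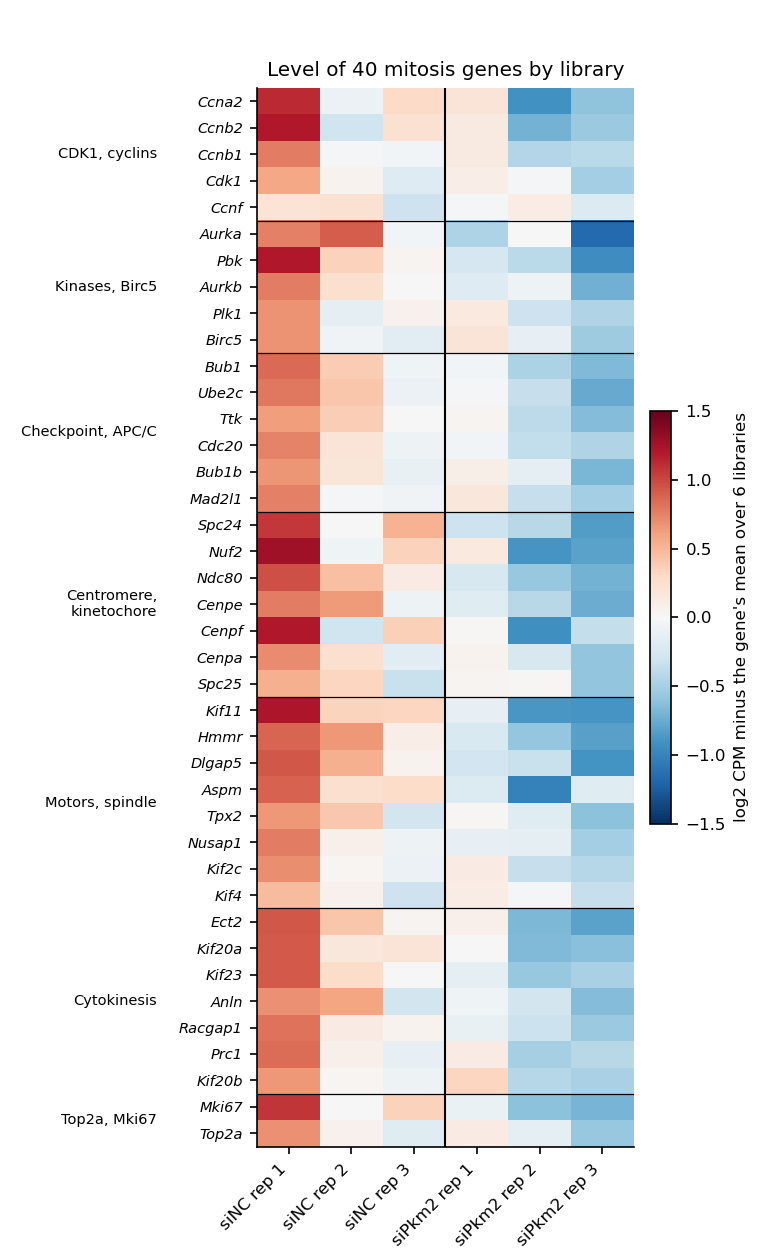
Rows are the 40 mitosis genes, grouped by role, and columns are the 6 libraries; colour is log2 CPM minus the gene's mean over the 6 libraries. Replicate 1 of siNC was the highest library for 38 genes and replicate 3 of siPkm2 the lowest for 30, while replicate 1 of siPkm2 was near the level of replicate 3 of siNC.

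Once the replicate number was a block in edgeR's fit, 33 of the 40 (82.5%) passed an adjusted p of 0.05, all lower in siPkm2, against 10.8% of all genes that were lower at that threshold. Of these, 8 also fell more than 2-fold, against 3.18% of all genes: Kif11, Hmmr, Aurka, Pbk, Spc24, Nuf2, Ndc80 and Dlgap5. The median log2 fold change was -0.67, a level at 62.7% of siNC. Falls and rises given with an SE are log2 fold changes of this blocked fit. In the counts by role below, genes that fell are those lower at an adjusted p under 0.05 in this fit. The share over all genes to set beside each of these counts is 10.8%. The 3′ untranslated regions of Kif11, Aurka and Spc24 hold matches to the seed of one of the study's siRNAs against Pkm2, whose part in their falls was not tested. Mad2l1 and Ccnf hold the same site, which occurred in 12.5% of the 40 members, against 16.4% of 13202 genes tested. Plk1, Nusap1, Spc25, Cdk1, Birc5, Kif4 and Ccnf did not pass, with adjusted p-values from 0.0511 to 0.575 in edgeR's blocked fit. Calls over the whole table depended on replicate pairs 1 and 3. With pair 1 or pair 3 left out, no member and no other gene (0%) passed an adjusted p of 0.05. The lowest of the members were then at 0.0642 and 0.0799. At an unadjusted p under 0.05 in edgeR's blocked test, 31 members passed in each. Over all genes, 1860 of 15740 were lower at that threshold without pair 1 and 1693 of 15545 without pair 3. Without pair 2, the one with high inflammatory genes, 37 members passed, against 19.3% of all genes lower at that threshold, and 9 also fell more than 2-fold, against 5.85%, so the share over all genes rose as well. DESeq2 with the same block gave 31 members past an adjusted p of 0.05, against 11.9% of genes, without Kif20b (DESeq2 adjusted p = 0.0730) and Kif2c (DESeq2 adjusted p = 0.0756). The medians without pairs 1, 2 and 3 were -0.61, -0.76 and -0.72.

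**Figure D2:**
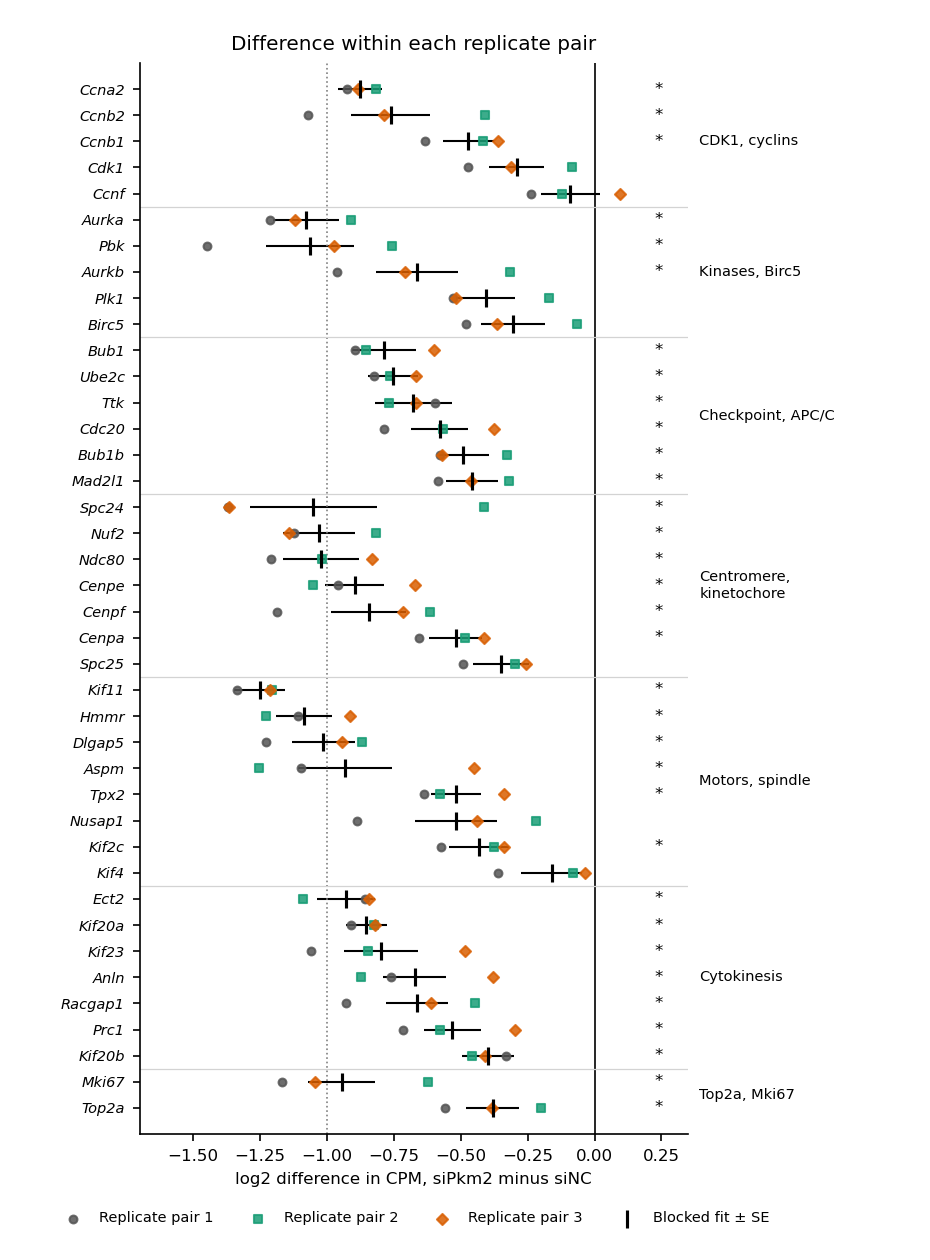
Points are the log2 difference in CPM between siPkm2 and siNC within replicate pairs 1, 2 and 3, black marks are the blocked estimate with its SE, an asterisk marks an adjusted p under 0.05, and the dotted line is a 2-fold fall. All points lay below 0 except Ccnf in pair 3, at 0.10.

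As levels per transcript length, the 40 genes summed to 1427, 1079 and 874 TPM in siNC and to 847, 741 and 581 TPM in siPkm2, which were 59.3%, 68.6% and 66.5% of the siNC library with the same number. Cdk1 was the most abundant in siNC at 146 ± 37.1 TPM (SD, n = 3), followed by Ube2c at 68.9 ± 16.2 TPM, Top2a at 66.8 ± 17.7 TPM and Cenpa at 62.7 ± 20.8 TPM (SD, n = 3 each). The last 3 did not differ beyond their spread, and the 4 made up 30.6% of the sum. The lowest were Aspm at 5.10 ± 1.12 TPM and Cenpf at 5.11 ± 2.29 TPM (SD, n = 3). Over the 40 genes, which share libraries, the blocked log2 fold change and log2 TPM in siNC had r = 0.26.

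Among CDK1 and the mitotic cyclins, the core engine of mitotic entry, 3 of 5 fell in the blocked fit and the median was -0.47. Ccna2, encoding cyclin A2, which acts from S phase to early mitosis, was at 81.8, 35.5 and 45.9 CPM in siNC and at 43.03, 20.2 and 24.9 CPM in siPkm2. Its groups overlapped through the high siPkm2 replicate 1, but the pair differences of -0.93, -0.82 and -0.88 were close to each other, and the fall was -0.88 ± 0.08 (SE, blocked edgeR adjusted p = 0.0109). Ccnb2, the Golgi-associated B-type cyclin, was at 49.4, 17.5 and 25.2 CPM in siNC and at 23.5, 13.2 and 14.6 CPM in siPkm2, and Ccnb1, the main partner of CDK1 at mitotic entry, was at 61.02, 35.5 and 34.98 CPM in siNC and at 39.3, 26.6 and 27.2 CPM in siPkm2. Both overlapped between groups and fell by 0.76 ± 0.15 (SE, blocked edgeR adjusted p = 0.0247) and 0.47 ± 0.10 (SE, blocked edgeR adjusted p = 0.0267) on the log2 scale. Cdk1, the kinase itself, was at 69.8, 48.8 and 40.9 CPM in siNC and at 50.3, 45.99 and 32.9 CPM in siPkm2. Only replicate 3 of siPkm2 was under the siNC range, and Cdk1 did not pass, with -0.29 ± 0.10 (SE, blocked edgeR adjusted p = 0.0944). Cyclin F, a ubiquitin ligase subunit that despite its name binds no CDK, had the smallest difference of the 40: Ccnf was at 23.8, 24.1 and 16.6 CPM in siNC and at 20.2, 22.1 and 17.8 CPM in siPkm2, with -0.09 ± 0.11 (SE, blocked edgeR adjusted p = 0.575).

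The mitotic kinases and survivin had a blocked median of -0.66, and 3 of 5 fell. Aurka (ENSMUSG00000027496, chr2:172356190-172370535, minus strand) encodes the Aurora kinase that matures centrosomes and builds the spindle. It was at 20.5, 22.9 and 11.8 CPM in siNC and at 8.86, 12.2 and 5.44 CPM in siPkm2. The first and last siPkm2 values were under every siNC library and that of replicate 2 was just inside the range, and the pair differences were -1.21, -0.91 and -1.12. In edgeR's fits it stood at a log2 fold change of -1.06 ± 0.38 (SE, edgeR adjusted p = 0.229) without the block and -1.08 ± 0.13 (SE, edgeR adjusted p = 0.0122) with it. Pbk (ENSMUSG00000022033, chr14:65805837-65817822, plus strand), a mitotic protein kinase known as TOPK, was at 31.3, 17.4 and 14.1 CPM in siNC and at 11.5, 10.3 and 7.17 CPM in siPkm2, with no overlap. The log2 fold change was -1.12 ± 0.35 (SE, edgeR adjusted p = 0.195) without the block and -1.06 ± 0.17 (SE, edgeR adjusted p = 0.0169) with it. Aurkb, the kinase of the chromosomal passenger complex that corrects wrong attachments, was at 27.5, 19.1 and 16.1 CPM in siNC and at 14.1, 15.3 and 9.83 CPM in siPkm2. It also had no overlap and fell by 0.66 ± 0.15 (SE, blocked edgeR adjusted p = 0.0352). Plk1, which acts with the Aurora kinases at centrosomes and kinetochores, and Birc5, which encodes the passenger subunit survivin, stayed above the threshold, with -0.41 ± 0.11 (SE, blocked edgeR adjusted p = 0.0511) and -0.30 ± 0.12 (SE, blocked edgeR adjusted p = 0.1198).

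All 6 spindle checkpoint and APC/C genes fell in the blocked fit, with a median of -0.63, and the groups overlapped in each of the 6. Bub1 and Bub1b encode the kinase and the pseudokinase of the checkpoint at the kinetochore. Bub1 was at 25.4, 18.3 and 13.4 CPM in siNC and at 13.7, 10.1 and 8.87 CPM in siPkm2, and Bub1b was at 50.7, 36.2 and 29.6 CPM in siNC and at 33.98, 28.8 and 19.9 CPM in siPkm2. In both, replicates 2 and 3 of siPkm2 were under the siNC range and replicate 1 was inside it. Ttk, encoding the kinase MPS1 that starts checkpoint signalling, was at 12.1, 10.1 and 7.84 CPM in siNC and at 7.97, 5.91 and 4.94 CPM in siPkm2. Mad2l1, whose product MAD2 binds CDC20 to block APC/C, was at 46.7, 27.3 and 26.8 CPM in siNC and at 31.1, 21.8 and 19.4 CPM in siPkm2. The falls of these 4 lay between -0.79 (Bub1, blocked edgeR adjusted p = 0.0164) and -0.46 (Mad2l1, blocked edgeR adjusted p = 0.0296) on the log2 scale. On the APC/C side, Cdc20, the activator, was at 76.6, 52.3 and 43.3 CPM in siNC and at 44.3, 35.3 and 33.4 CPM in siPkm2. Ube2c, the E2 enzyme that loads ubiquitin onto APC/C substrates, was at 42.2, 32.4 and 22.9 CPM in siNC and at 23.8, 19.1 and 14.4 CPM in siPkm2. Replicate 1 of siPkm2 narrowly passed replicate 3 of siNC in both. Cdc20 fell by 0.58 ± 0.11 (SE, blocked edgeR adjusted p = 0.0218) and Ube2c by 0.75 ± 0.09 (SE, blocked edgeR adjusted p = 0.0131).

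Centromere and kinetochore genes had the lowest median among the roles with 5 or more members, at -0.90, and 6 of 7 fell. The NDC80 complex, which grips microtubule ends, is made of 4 subunits, all members. Spc24 (ENSMUSG00000074476, chr9:21755442-21760303, minus strand) was at 16.9, 8.09 and 11.6 CPM in siNC and at 6.53, 6.07 and 4.52 CPM in siPkm2. Its groups did not overlap, although replicate 2 differed less than the other pairs, which were at -1.37, -0.41 and -1.36 in order. Its log2 fold change was -1.10 ± 0.32 (SE, edgeR adjusted p = 0.176) without the block and -1.05 ± 0.24 (SE, edgeR adjusted p = 0.0337) with it. Nuf2 (ENSMUSG00000026683, chr1:169497934-169531464, minus strand) was at 26.5, 10.5 and 13.9 CPM in siNC and at 12.2, 5.95 and 6.31 CPM in siPkm2. Here replicate 1 of siPkm2 was above replicate 2 of siNC, while the pair differences were alike at -1.12, -0.82 and -1.14. In edgeR's fits it stood at a log2 fold change of -1.06 ± 0.45 (SE, edgeR adjusted p = 0.288) without the block and -1.03 ± 0.13 (SE, edgeR adjusted p = 0.0133) with it. Ndc80 (ENSMUSG00000024056, chr17:71496100-71526857, minus strand), which names the complex and holds its microtubule-binding head with NUF2, was at 19.4, 13.6 and 10.8 CPM in siNC and at 8.39, 6.69 and 6.08 CPM in siPkm2, with no overlap. The log2 fold change was -1.05 ± 0.28 (SE, edgeR adjusted p = 0.152) without the block and -1.02 ± 0.14 (SE, edgeR adjusted p = 0.0142) with it. Spc25, the partner of SPC24 at the chromosome end of the complex, did not pass, with -0.35 ± 0.10 (SE, blocked edgeR adjusted p = 0.0641), from 27.1, 23.3 and 14.8 CPM in siNC and at 19.3, 18.9 and 12.4 CPM in siPkm2.

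Of the other centromere genes, Cenpe, a kinesin that carries chromosomes to the spindle equator, was at 47.3, 43.2 and 26.3 CPM in siNC and at 24.3, 20.8 and 16.5 CPM in siPkm2. No siPkm2 library reached the siNC range, and Cenpe fell by 0.90 ± 0.11 (SE, blocked edgeR adjusted p = 0.0131). Cenpf, a large coiled-coil protein of the outer kinetochore, was at 56.8, 20.02 and 31.5 CPM in siNC and at 24.9, 13.1 and 19.2 CPM in siPkm2. The siNC libraries alone spanned over 2-fold and the groups overlapped, but Cenpf was lower in each pair and fell by 0.84 ± 0.14 (SE, blocked edgeR adjusted p = 0.0182). Cenpa, the histone H3 variant that marks the centromere, was at 42.8, 30.99 and 23.2 CPM in siNC and at 27.1, 22.2 and 17.4 CPM in siPkm2, and fell by 0.52 ± 0.10 (SE, blocked edgeR adjusted p = 0.0230). It was the least changed of these 3 and by far the most abundant per transcript length.

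Spindle motors and microtubule proteins included the largest fall and one of the smallest, and 6 of 8 fell, with a median of -0.73. Kif11 (ENSMUSG00000012443, chr19:37376403-37421859, plus strand) was at 51.2, 27.8 and 27.7 CPM in siNC and at 20.3, 12.1 and 11.97 CPM in siPkm2. The groups did not overlap, and the pair differences of -1.33, -1.21 and -1.21 were nearly equal, also in replicate 2. Its log2 fold change was -1.27 ± 0.34 (SE, edgeR adjusted p = 0.158) without the block and -1.25 ± 0.09 (SE, edgeR adjusted p = 0.00942) with it. Hmmr (ENSMUSG00000020330, chr11:40701395-40733422, minus strand), whose product binds hyaluronan outside cells and spindle microtubules within, was at 41.4, 35.3 and 24.2 CPM in siNC and at 19.2, 15.1 and 12.8 CPM in siPkm2, again with no overlap. In edgeR's fits it stood at a log2 fold change of -1.10 ± 0.26 (SE, edgeR adjusted p = 0.136) without the block and -1.09 ± 0.11 (SE, edgeR adjusted p = 0.0109) with it. Dlgap5 (ENSMUSG00000037544, chr14:47387779-47418407, minus strand), encoding the spindle assembly factor HURP, was at 33.3, 25.2 and 18.00 CPM in siNC and at 14.2, 13.8 and 9.37 CPM in siPkm2, with every siPkm2 library the lower. The log2 fold change was -1.03 ± 0.28 (SE, edgeR adjusted p = 0.162) without the block and -1.01 ± 0.12 (SE, edgeR adjusted p = 0.0122) with it.

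Aspm, which focuses microtubules at the spindle poles, was at 40.5, 25.9 and 26.4 CPM in siNC and at 18.9, 10.9 and 19.3 CPM in siPkm2. The groups did not overlap, yet the pairs were uneven, at -1.10, -1.25 and -0.45, and the fall was -0.93 ± 0.18 (SE, blocked edgeR adjusted p = 0.0232). Tpx2, which activates Aurora A on the spindle, was at 81.6, 68.4 and 42.8 CPM in siNC and at 52.5, 45.8 and 33.9 CPM in siPkm2, and Kif2c, a kinesin that takes microtubules apart at kinetochores, was at 25.2, 15.9 and 14.7 CPM in siNC and at 16.9, 12.3 and 11.6 CPM in siPkm2. These 2 overlapped between groups and had smaller falls, -0.52 ± 0.09 (SE, blocked edgeR adjusted p = 0.0212) and -0.43 ± 0.11 (SE, blocked edgeR adjusted p = 0.0460). Nusap1, a microtubule bundling protein, was without overlap between groups but did not pass, at -0.52 ± 0.15 (SE, blocked edgeR adjusted p = 0.0639), and its pair differences ran from -0.89 to -0.22. Kif4, a chromosome-bound kinesin, did not pass, at -0.16 ± 0.12 (SE, blocked edgeR adjusted p = 0.344).

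**Figure D3:**
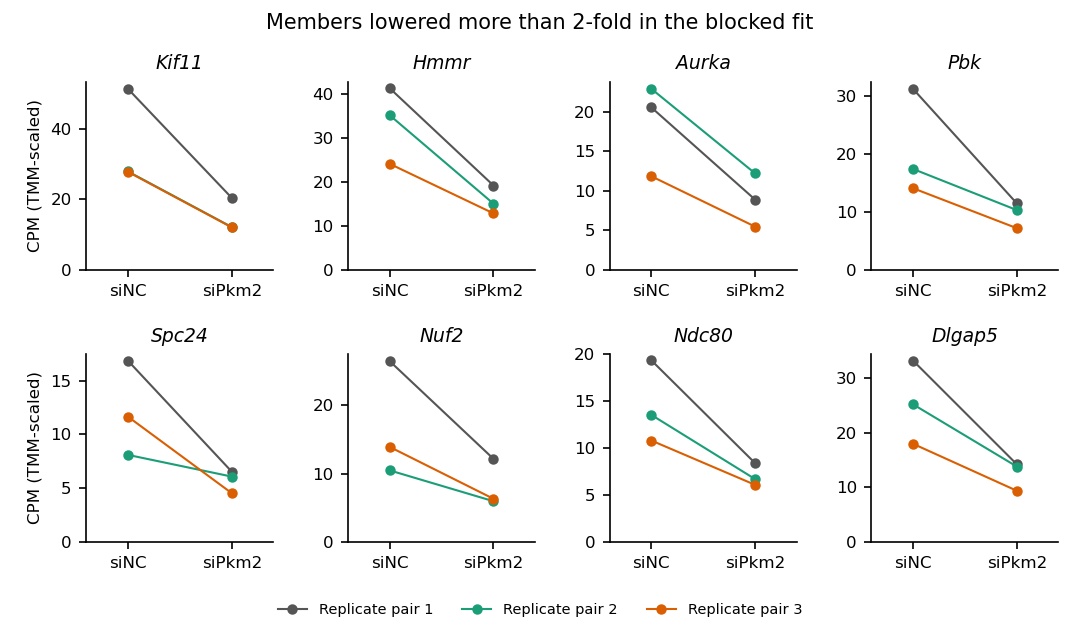
Each panel is 1 of the 8 genes that fell more than 2-fold in the blocked fit; points are CPM in a library, on an axis from 0, and lines join siNC and siPkm2 of the same replicate number. All lines go down; the siNC points of a gene span more than the siPkm2 points, with replicate 1 of siNC the highest except for Aurka.

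All 7 cytokinesis genes fell in the blocked fit, with a median of -0.67. Centralspindlin, the complex that sets the site of cleavage, is made of a kinesin from Kif23 and a GTPase-activating protein from Racgap1. Kif23 was at 39.6, 25.4 and 21.02 CPM in siNC and at 19.02, 14.1 and 15.04 CPM in siPkm2, and Racgap1 was at 87.8, 54.4 and 51.6 CPM in siNC and at 46.1, 39.9 and 33.8 CPM in siPkm2. In neither did the groups overlap, and they fell by 0.80 ± 0.14 (SE, blocked edgeR adjusted p = 0.0195) and 0.66 ± 0.11 (SE, blocked edgeR adjusted p = 0.0198). Ect2, the exchange factor that centralspindlin recruits to switch on RhoA, was at 32.8, 22.9 and 17.6 CPM in siNC and at 18.1, 10.7 and 9.83 CPM in siPkm2. Only replicate 1 of siPkm2 reached the siNC range, narrowly, and the fall was -0.93 ± 0.11 (SE, blocked edgeR adjusted p = 0.0122). Anln, a scaffold of the contractile ring, was at 118, 111 and 60.7 CPM in siNC and at 69.97, 60.5 and 46.6 CPM in siPkm2. Prc1, which bundles antiparallel microtubules in the midzone, was at 100.1, 59.1 and 51.4 CPM in siNC and at 60.9, 39.6 and 41.8 CPM in siPkm2. Both overlapped through replicate 1 of siPkm2, and they fell by 0.67 ± 0.12 (SE, blocked edgeR adjusted p = 0.0199) and 0.53 ± 0.11 (SE, blocked edgeR adjusted p = 0.0260).

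The kinesin-6 gene Kif20a, which brings passenger proteins to the midzone, was at 93.5, 55.8 and 56.7 CPM in siNC and at 49.8, 31.5 and 32.1 CPM in siPkm2. No overlap was seen, and its pair differences of -0.91, -0.83 and -0.82 were among the most even, with a fall of -0.85 ± 0.08 (SE, blocked edgeR adjusted p = 0.0109). Kif20b, its relative, was at 30.1, 19.5 and 18.2 CPM in siNC and at 23.9, 14.2 and 13.7 CPM in siPkm2, with overlap and a smaller fall of -0.40 ± 0.10 (SE, blocked edgeR adjusted p = 0.0396). The last pair of members is used as proliferation markers. Mki67, encoding the Ki-67 protein that coats mitotic chromosomes, was at 216, 103 and 130.4 CPM in siNC and at 96.2, 67.2 and 63.2 CPM in siPkm2. No siPkm2 library reached the siNC range, and the fall was -0.95 ± 0.13 (SE, blocked edgeR adjusted p = 0.0141). Top2a, the topoisomerase that untangles sister chromatids, was at 205, 134 and 113 CPM in siNC and at 139, 117 and 86.2 CPM in siPkm2. It overlapped widely and fell by 0.38 ± 0.10 (SE, blocked edgeR adjusted p = 0.0460), with the highest adjusted p of the 33, shared with Kif2c.

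A longer list of 72 further mitosis genes, which holds other subunits of the same complexes, had a blocked median of -0.44, with 64 of 72 negative without the block. With the block, 24 fell and 3 rose at an adjusted p under 0.05, against 10.8% of all genes lower and 12.3% higher at that threshold. Among those that fell, Zwilch, of the RZZ complex that recruits checkpoint proteins, was at 23.9, 18.2 and 13.7 CPM in siNC and at 9.32, 8.17 and 7.36 CPM in siPkm2. The others with the largest falls were Depdc1a (-1.11), the centromere subunit gene Cenpm (-1.10) and Sgo1 (-1.09), the protector of cohesin at centromeres, beside Zwilch at -1.14 (log2 fold changes, blocked edgeR adjusted p from 0.0129 to 0.0449). The 3 that rose were fewer than the share over all genes would give. Zwint, of the kinetochore linker that ZWILCH's complex docks on, was at 97.4, 169 and 86.3 CPM in siNC and at 189, 192 and 170.1 CPM in siPkm2, and rose by 0.71 ± 0.18 (SE, blocked edgeR adjusted p = 0.0432). Pttg1, which encodes securin, the brake on sister separation, was at 13.7, 35.2 and 11.6 CPM in siNC and at 28.8, 41.2 and 20.7 CPM in siPkm2, and rose by 0.70 ± 0.18 (SE, blocked edgeR adjusted p = 0.0442). Mad1l1, the kinetochore anchor of MAD2, was at 21.9, 11.6 and 20.8 CPM in siNC and at 33.3, 20.2 and 29.9 CPM in siPkm2, and rose by 0.64 ± 0.10 (SE, blocked edgeR adjusted p = 0.0176). For Pttg1 and Zwint the libraries of replicate 2 were the highest of each group.

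The S-phase list, 32 genes of DNA replication and its licensing, had a blocked median of -0.02. It had 17 negative and 15 positive log2 fold changes without the block, and 3 fell and 3 rose with it at an adjusted p under 0.05, against 10.8% of all genes lower and 12.3% higher. Pcna, the sliding clamp of replication, was at 104, 62.9 and 73.5 CPM in siNC and at 109, 81.5 and 79.4 CPM in siPkm2, with 0.18 ± 0.09 (SE, blocked edgeR adjusted p = 0.209). The replicative helicase subunits Mcm2, Mcm3, Mcm4, Mcm5, Mcm6 and Mcm7 had blocked log2 fold changes of 0.29, 0.40, 0.09, 0.12, -0.08 and 0.02, and only Mcm3 passed (blocked edgeR adjusted p = 0.0358), as a rise. The genes of the 2 lists were measured in the same libraries, in which siNC replicate 1 was also the highest siNC library for Pcna and for each of these 6 Mcm genes. Summed over the list, S-phase genes were at 856, 693 and 621 TPM in siNC and at 849, 761 and 622 TPM in siPkm2. The difference between the lists was not tested.

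**Figure D4:**
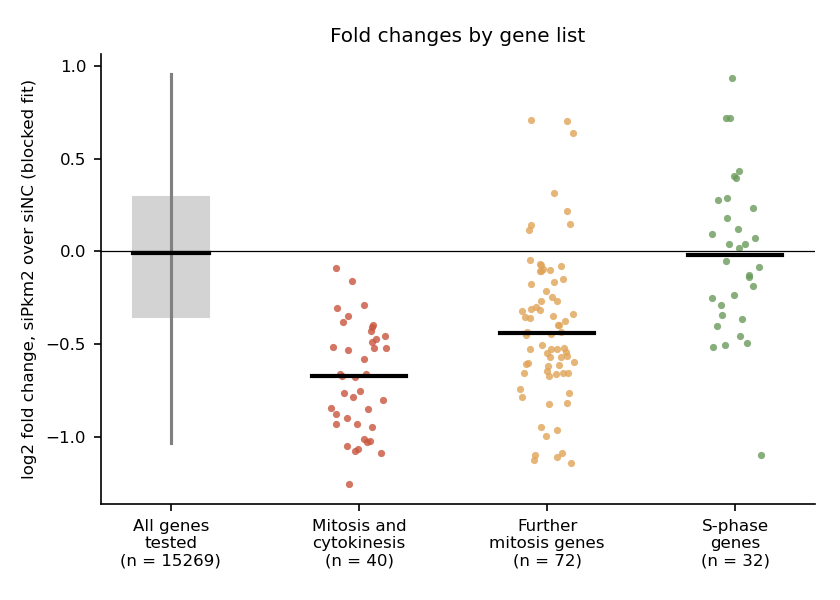
The vertical axis is the blocked log2 fold change of siPkm2 over siNC; for all genes the box spans the quartiles, the line the 5th to 95th percentiles and the bar the median, and for the lists each point is a gene and the bar the median. The medians were -0.67 for the 40 mitosis and cytokinesis genes, -0.44 for further mitosis genes, -0.02 for S-phase genes and -0.01 for all genes.

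Of 12 regulators of the G2 and M phases, 3 fell and 2 rose in the blocked fit, against 10.8% of all genes lower and 12.3% higher, and none passed without the block, where edgeR's adjusted p-values were 0.201 or more. Foxm1, the activator of late cell cycle promoters, was at 36.6, 23.5 and 25.4 CPM in siNC and at 21.7, 19.5 and 17.6 CPM in siPkm2. No siPkm2 library reached the siNC range, and Foxm1 fell by 0.52 ± 0.12 (SE, blocked edgeR adjusted p = 0.0377). Cdc25c, a phosphatase that activates CDK1, was at 10.3, 10.2 and 5.65 CPM in siNC and at 5.73, 4.36 and 2.29 CPM in siPkm2, and fell by 1.11 ± 0.18 (SE, blocked edgeR adjusted p = 0.0177). Wee1, the kinase that inhibits CDK1, also fell, by 0.51 ± 0.13 (SE, blocked edgeR adjusted p = 0.0433), so an activator and an inhibitor of CDK1 went the same way. Cdkn1a, encoding the CDK inhibitor p21, was at 176, 638 and 161 CPM in siNC and at 421, 889.8 and 407 CPM in siPkm2. Its groups overlapped through the high replicate 2 of siNC, and within pairs it rose by 1.03 ± 0.19 (SE, blocked edgeR adjusted p = 0.0222). Trp53, which encodes the p53 protein that activates Cdkn1a, was at 99.7, 93.5 and 91.8 CPM in siNC and at 119, 128 and 118 CPM in siPkm2, without overlap, and rose by 0.36 ± 0.08 (SE, blocked edgeR adjusted p = 0.0352). The others did not pass: Mybl2 (B-MYB) at 0.05 ± 0.25 (SE, blocked edgeR adjusted p = 0.894), the MuvB subunit gene Lin9 at 0.22, E2f1 at -0.36, E2f4 at 0.16, the pocket protein genes Rbl1 at -0.28 and Rbl2 at 0.07, and Cdc25b at -0.24 (log2 fold changes, blocked edgeR adjusted p from 0.0579 to 0.894).

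The promoters printed above are part of a shared pattern that was not used to choose the genes. These elements are already known from genes of this programme, so a high share among the members is no separate support. RefSeq promoters of 250 bases before to 50 bases after the start were found for 33 of the 40 members and for 11108 genes tested. A CHR, as either of its printed forms on either strand, occurred in at least 1 promoter of 27 of the 33 (81.8%), against 16.5% of the genes tested. Within 100 bases before to 50 bases after the start it occurred in 26 of 33 (78.8%), against 6.57%. A CCAAT box occurred in 25 of 33 (75.8%), against 43.0%, at least 2 occurred in 54.5%, against 16.6%, and both elements in 69.7%, against 6.9%. The CHR and the CCAAT box can share bases only at their ends, and a gene with several promoters had more chances of a match. Among the further mitosis genes 63.3% of 60 had a CHR, and among S-phase genes 5 of 25.

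The CHR was present in most members whether or not they passed the test. It was found in 22 of the 26 members with a promoter that fell in the blocked fit and in 5 of the 7 that did not pass, these being Cdk1, Ccnf, Plk1, Spc25 and Kif4. In Cdk1, which did not pass, the printed window holds 2 CHR and 2 CCAAT boxes, and in Kif11, with the largest fall, 1 of each. The CHR starts 19 bases before the start of transcription in Kif11, 18 in Cdc20, 29 in Ube2c and 23 in Top2a, and begins on base 9 after it in Hmmr. No CHR was found in the listed promoters of Ccnb1, Mad2l1, Cenpe, Birc5, Nusap1 and Nuf2. Of the 8 members that fell more than 2-fold, Pbk, Spc24 and Dlgap5 had no promoter in the table. A match is to letters only, and binding was not measured in these cultures.

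**Figure D5:**
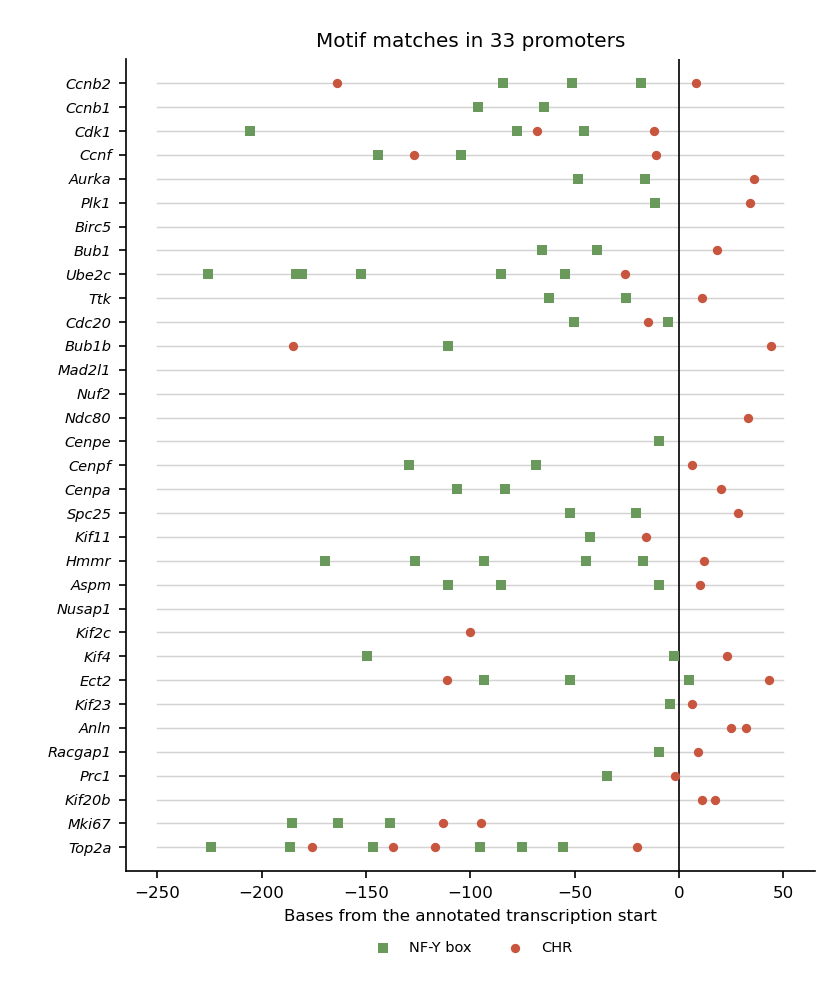
Each row is 1 member with a RefSeq promoter, drawn from 250 bases before to 50 bases after the annotated start at 0; circles are CHR matches and squares CCAAT (NF-Y) box matches on either strand, in the promoter with most CHR matches near the start. In 26 of the 33 rows a CHR lies from 100 bases before to 50 bases after the start, and the squares lie mainly before the start.

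The 40 genes lie on 17 chromosomes. Their counts were not small, between 98.6 and 5393 estimated counts in a library, and 23 of them had fractional counts, as estimates give when reads are shared between genes or transcripts. Exons of 6 members overlap those of a tested gene on the opposite strand (Ccna2 with Exosc9, Kif20a with Cdc23, Kif4 with Pdzd11, Cdc20 with Elovl1, Nusap1 with Oip5 and Prc1 with Rccd1). Whether counting used strand is not given in the sources used here, so reads of these partners may be mixed. Nothing in the labels says that the 3 libraries of a group came from separate animals, and p-values then measure only the spread between these cultures.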

How the data were processed

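RNA-seq libraries of primary mouse chondrocytes (siNC, n = 3; siPkm2, n = 3) were analysed from the processed files. The authors deposited estimated counts per gene, not normalized and in part fractional, and TPM values, scaled by the authors to transcript length and library total. Columns with the authors' own comparison of the groups (fold changes and p-values) were not used. The submitters' processing notes name mm9 and edgeR, while the table's name refers to DESeq2. The aligner and counter are not given in the sources used here. Gene positions are from GENCODE M21 on GRCm38 and promoters from RefSeq on GRCm38.p6.

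Counts were rounded and tested in R 4.3.3 with edgeR 4.0.16 (filterByExpr, TMM factors, quasi-likelihood test, Benjamini-Hochberg adjustment over 15269 genes), checked on simulated counts. Calls needed more than a 2-fold change together with an adjusted p under 0.05. Depth was 22316996 to 25691029 estimated counts per library. Counting noise and the spread between cultures were not separated. As alternatives, upper-quartile or RLE factors, DESeq2 1.42.0, other filters, no fold threshold, limma 3.58.1 on log2(TPM + 1) and log2(TPM + 0.1) with genes of mean TPM over 0.5, each library left out, and a block for the replicate number were tried. The labels number the libraries of both groups 1, 2 and 3. Deviations from the group mean of libraries with the same number correlated at 0.66, 0.76 and 0.65 over the genes tested. Other pairings were at 0.16 or less. The numbers were therefore taken to pair the libraries. Deviations cancel within a group, so high values for the same number lower those of other pairings, which are no separate support. Replicate 2 stood apart in both groups, and its part in these correlations was not tested.

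The 40 members and the other lists were chosen with earlier results of these data known. Named were all members, Pkm, 12 regulators, Pcna and Mcm2 to Mcm7, and, of the further mitosis genes, up to 4 in each direction with the largest blocked change past an adjusted p of 0.05. Values of every library are given for members past that threshold, for the 4 of highest mean TPM, and also for Spc25 and Ccnf.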

Additional observations from a re-analysis of the deposited data

How the results depend on the processing

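The negative direction of the 40 mitosis genes was kept in all settings tried with the exception of Kif4, whose log2 fold change ranged from -0.35 without siNC replicate 3 to 0.049 without siNC replicate 1, the 1 positive value among the members there (0 to 1 positive members over all left-out libraries). Members called at a fold over 2 and an adjusted p under 0.05 numbered 0 without the block, 4 by DESeq2, 8 with the replicate block, 8 with the block by DESeq2 and 33 with the block and no fold threshold, and with libraries or pairs left out they ranged from 0 to 9. Their median log2 fold change ranged from -0.89 (without siNC replicate 3) to -0.42 (without siNC replicate 1). Calls over all genes went from 0 to 3 with upper-quartile factors, 9 with no filter, 3 with at least 10 counts in every library, 1 by limma on each TPM scale, 430 by DESeq2, 890 with the replicate block, 1017 with the block by DESeq2 and 3524 with the block and no fold threshold, and ranged from 0 to 1639 with libraries or pairs left out. Without siNC replicate 2, 105 genes and no member were called. The causes were not tested. With 3 libraries a group, the median member differed 1.79-fold between siNC replicates 1 and 3, more than the 1.60-fold median fall between the groups in the blocked fit.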

Other observations

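Matches to the seeds of the siRNAs against Pkm2 were counted in the members' 3′ untranslated regions (longest annotated, GENCODE M21), since the supplement lists 3 siRNAs. The supplement says that the third was chosen for the study, and the methods name it for injection into joints, but neither gives a number for the sequenced cultures. The site for the guide of siPkm2 #3 (GAGAAAC) occurred in 5 of the 40 members (12.5%), against 16.4% of 13202 genes tested: Aurka, Mad2l1, Spc24 and Ccnf had 1 site and Kif11 had 2. The median blocked log2 fold change was -1.05 over these 5, which include the largest fall (Kif11) and the smallest change (Ccnf), and -0.67 over the 35 members without a site. Sites for #1 (TGTACCA) occurred in 4 members (10.0%), against 10.9% of genes, and sites for #2 (AAGAATG) in 2 members (5.0%), against 15.9%. The members' regions were shorter, with a median of 735.5 bases against 1236 bases.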
